A study of Mus musculus with 6 samples.

Results

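Heme, the iron-holding ring of hemoglobin, is built from glycine and succinyl-CoA by a chain of enzymes that begins and ends in the mitochondrion. Red cell precursors in the bone marrow run this chain at a high rate, and they feed it with iron that enters the cell bound to transferrin and then crosses the inner mitochondrial membrane. The 9 genes described here comprise 7 enzymes of the chain (Alas2, Alad, Uros, Urod, Cpox, Ppox and Fech) and 2 genes of iron import, Tfrc for the cell surface and Slc25a37 for the mitochondrion. They were taken by gene symbol from the array's probe-to-gene table. Each had 1 probe set that named it alone, and all 9 passed the filter on low signal, among 11940 genes tested and 19938 genes with a probe set of their own.

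RNA of whole bone marrow had been hybridised to 6 Affymetrix arrays of 1 colour, with 3 wild type and 3 diabetic samples. The genotype label of the wild type mice was BKS.Cg-Dock7m +/+ Leprdb/JNju and that of the diabetic mice BKS.Cg-Dock7m -/- Leprdb/JNju, so the Dock7m and Leprdb names stand in the labels of both groups and only the signs differ. Leprdb is a mutant allele of the leptin receptor gene that makes homozygous mice obese and diabetic, and Dock7m is the misty coat colour allele kept with it in the stock. Which alleles each mouse carried is not given beyond these labels. All 6 mice were labelled male and 10 weeks old, the marrow was flushed from the shafts of femurs and tibiae with no sorting step in the labels, and no mouse was treated further. The labels do not say whether mice were pooled, and the p-values therefore cover only the spread among the arrays as labelled.

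Values are log2 signals from RMA (robust multi-array averaging), which gives every array the same distribution of probe values, and the array medians lay between 7.67 and 7.73. Precision is limited by having 3 arrays in each group. Marrow markers fixed by name passed the signal filter in 13 of 13 neutrophil genes, 10 of 10 marrow macrophage genes, 25 of 28 erythroid genes and 9 of 12 B lineage genes. Skeletal muscle genes did so too in 5 of 8 cases. No array was a copy of another, and the mean correlation of an array with the others of its group was lowest for wild type replicate 3, at 0.983, against 0.986 to 0.994 for the other arrays.

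The DNA upstream of the members is shown because GATA1, the master transcription factor of red cell precursors, binds short words built around the letters GATA, and because the members turned out to vary together. RefSeq promoter windows (GRCm38.p6) were at hand for 7 of the 9 members, in 10 windows, and were searched over the 250 bases before the start. The first word searched was AGATAA, the second word was TGATAA, a further word was AGATAG and the last word was TGATAG, each on both strands, with overlapping words counted apart. At least 1 of these words was in the windows of 3 members, Alas2, Uros and Cpox, and in none of the windows of Alad, Urod, Ppox and Tfrc. Counted by window, 3 of the 10 held a word. Of all 32851 RefSeq windows of that length, 26.5% held such a word, which is a similar share, and 6.4% held 2 or more. Whether these words bear on the members' values was not tested. The 3 windows with a word are printed 5′ to 3′ on the gene's strand, with the words in capitals. All words lay on the strand opposite to the gene, so they appear as their reverse complements.
Alas2, upstream of its start (chrX:150547167-150547416, plus strand): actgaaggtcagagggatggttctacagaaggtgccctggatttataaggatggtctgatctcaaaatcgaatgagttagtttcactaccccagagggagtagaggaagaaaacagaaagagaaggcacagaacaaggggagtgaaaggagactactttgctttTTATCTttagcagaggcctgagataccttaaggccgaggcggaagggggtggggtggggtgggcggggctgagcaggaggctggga
Cpox, upstream of its start (chr16:58669958-58670207, plus strand): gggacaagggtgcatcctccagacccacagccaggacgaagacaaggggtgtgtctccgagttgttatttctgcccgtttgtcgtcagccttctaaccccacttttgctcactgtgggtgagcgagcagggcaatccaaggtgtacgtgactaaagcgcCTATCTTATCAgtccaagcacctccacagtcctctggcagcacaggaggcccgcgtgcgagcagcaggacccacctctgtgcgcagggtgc
Uros, upstream of the more downstream of its 2 listed starts (chr7:133702501-133702750, minus strand): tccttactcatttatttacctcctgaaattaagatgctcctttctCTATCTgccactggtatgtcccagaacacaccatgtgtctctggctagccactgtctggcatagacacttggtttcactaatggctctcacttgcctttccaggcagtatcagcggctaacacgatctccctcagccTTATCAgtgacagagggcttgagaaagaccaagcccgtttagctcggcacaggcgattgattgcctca

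In Cpox the 2 words overlapped by 1 base and began 91 and 86 bases before the start. In Alas2 the single word began 86 bases before it. Uros has 2 listed starts, and its words, 205 and 68 bases before the start, were in the window of the downstream one only. A match is a run of letters and not a measured binding site. CACCC, the word bound by the erythroid factor KLF1, was in 52.0% of all windows and so says little about any 1 of them.

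The comparison asked whether these genes differed between diabetic and wild type marrow. None was called different. With limma and Benjamini-Hochberg adjustment over all genes tested, 0 of the 9 members passed an adjusted p of 0.05, where 0.41% of all genes tested did (49 of 11940). At an unadjusted p under 0.05 there were also 0 of 9, against 7.16% of all genes (3.99% higher and 3.17% lower in diabetic marrow). The diabetic and wild type values overlapped in all 9 members, and 12.4% of all genes had groups that did not overlap. Of the members 6 were nominally higher and 3 nominally lower in diabetic marrow, with a median change of 0.02 on the log2 scale, against 0.0047 over all genes. Over all genes the count called was 3 to 68 when 1 array was left out, 3 without diabetic replicate 2, 5 without diabetic replicate 1, 12 without diabetic replicate 3 and 13 without wild type replicate 2.

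Alas2 makes the erythroid form of aminolevulinate synthase, which starts the pathway. Its log2 signal was 13.26, 13.24 and 13.37 on wild type replicates 1, 2 and 3 and 13.24, 13.46 and 13.28 on diabetic replicates 1, 2 and 3. Wild type replicate 3 and diabetic replicate 2 were the high arrays, the groups overlapped, and the change was 0.04 ± 0.08 (SE, n = 3 per group). Its 95% interval, -0.14 to 0.22, was the narrowest of the 9 and corresponds to 0.905-fold to 1.16-fold.

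Alad, aminolevulinate dehydratase, joins pairs of the first product. It read 12.44, 12.65 and 13.06 in wild type and 12.56, 12.89 and 12.61 in diabetic marrow, so that both the lowest and the highest of the 6 values were wild type. The change was -0.03 ± 0.16 (SE, n = 3 per group), with a 95% interval of -0.40 to 0.34.

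Uros, uroporphyrinogen III synthase, closes the ring. Its log2 signal was 9.34, 9.69 and 10.10 in wild type and 9.49, 10.00 and 9.47 in diabetic marrow. All 3 diabetic values lay inside the wild type range, and the change was -0.06 ± 0.21 (SE, n = 3 per group). Urod, uroporphyrinogen decarboxylase, acts next. It read 11.84, 11.93 and 12.46 in wild type and 12.01, 12.35 and 12.01 in diabetic marrow, again inside the wild type range, with a change of 0.05 ± 0.17.

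Cpox, coproporphyrinogen oxidase, brings the pathway back to the mitochondrion and had the widest spread of the 9. It read 11.11, 11.43 and 12.08 in wild type, which is a 1.96-fold range, and 11.40, 11.78 and 11.51 in diabetic marrow, a 1.30-fold range. The group means nevertheless differed by only 0.02 ± 0.23 (SE, n = 3 per group). The 95% interval ran from -0.50 to 0.55, or 0.707-fold to 1.46-fold.

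Ppox, protoporphyrinogen oxidase, and Fech, ferrochelatase, carry out the last steps, and Fech places the iron in the ring. Ppox read 11.13, 11.33 and 11.67 in wild type and 11.20, 11.53 and 11.29 in diabetic marrow, a change of -0.04 ± 0.14 (SE, n = 3 per group). Fech read 11.72, 11.80 and 12.25 in wild type and 11.79, 12.15 and 11.90 in diabetic marrow, a change of 0.02 ± 0.15. In both genes the diabetic values fell inside the wild type range.

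The iron import genes had the largest nominal differences, and their 95% intervals too included 0. Tfrc, the transferrin receptor, read 11.50, 11.80 and 12.03 in wild type and 11.85, 12.23 and 11.73 in diabetic marrow. Its change was 0.16 ± 0.16 (SE, n = 3 per group), with a 95% interval of -0.21 to 0.54 and a limma p, adjusted by Benjamini-Hochberg, of 0.946. Slc25a37, mitoferrin 1, read 13.15, 13.11 and 13.46 in wild type and 13.26, 13.49 and 13.38 in diabetic marrow. Its change of 0.13 ± 0.11, with a 95% interval of -0.11 to 0.38, had the smallest adjusted p of the 9, at 0.924. The highest adjusted p was 0.997, for Cpox.

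**Figure D1:**
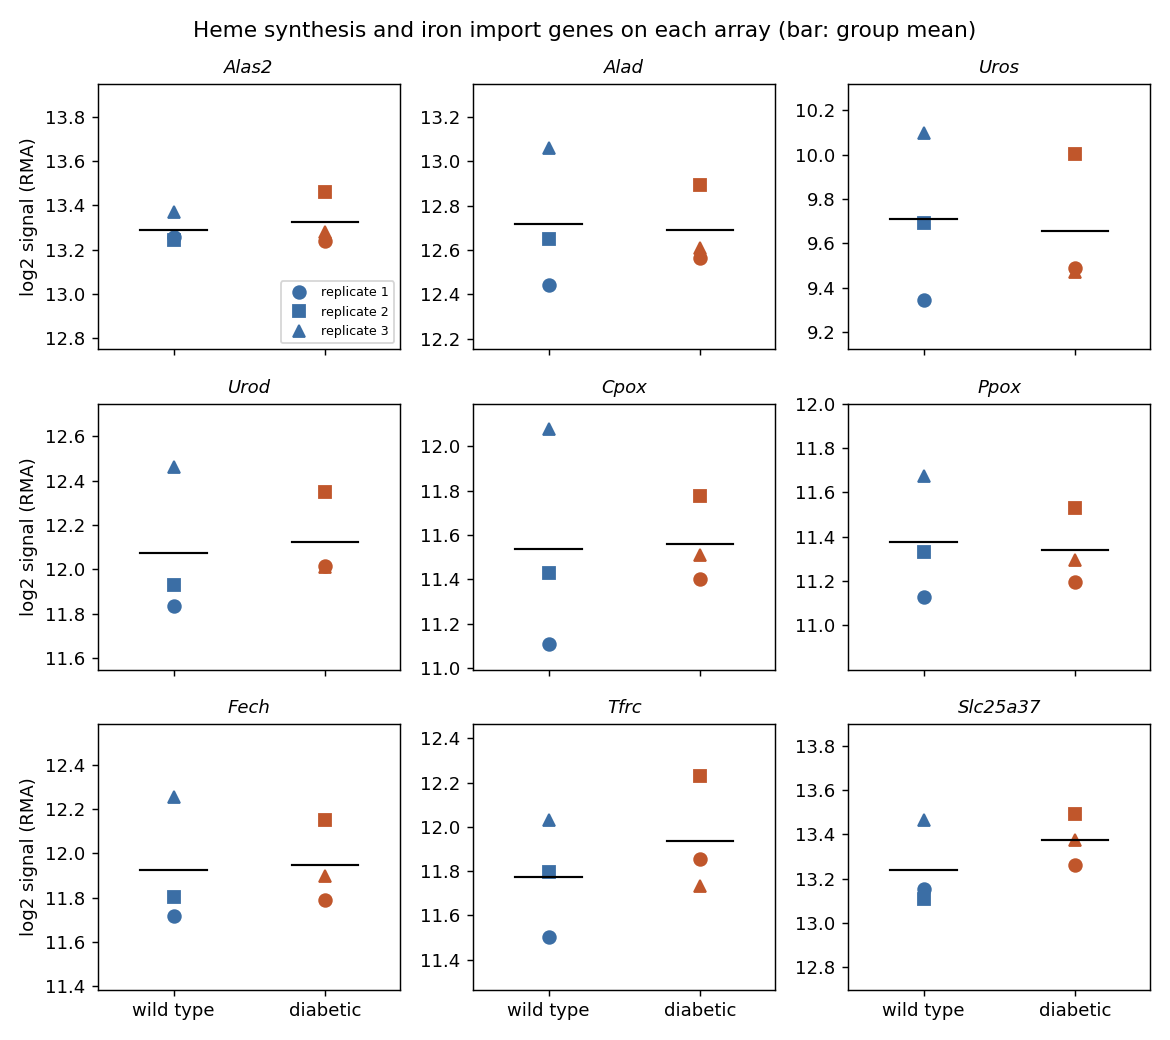
Log2 signal (RMA) of each of the 9 genes on each array, by group; symbols mark the replicate number, black bars the group means, and every panel spans the same height on the log2 scale. Wild type replicate 3 (blue triangles) and diabetic replicate 2 (orange squares) were the highest of their groups in all 9 panels.

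**Figure D2:**
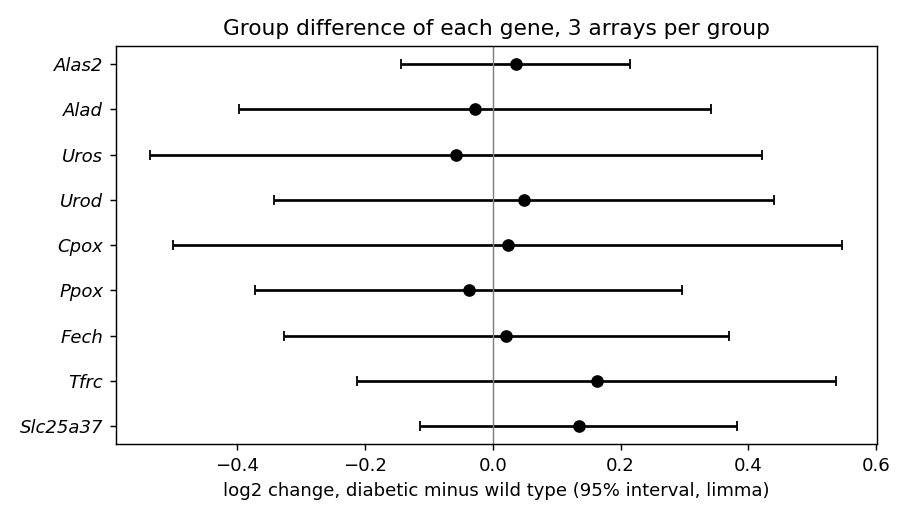
Log2 change, diabetic minus wild type, of each gene with its 95% interval from limma, 3 arrays per group. Every interval includes 0, from -0.14 to 0.22 for Alas2 to -0.50 to 0.55 for Cpox.

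The spread between arrays within the groups was the main feature of these genes. The standard deviation pooled over both groups had a median of 0.257 over the 9 members, against 0.0923 over all genes tested. It ranged from 0.229 for Ppox to 0.376 for Cpox in 7 members, which put them between the 93.8 and 98.9 percentile of all genes tested. Slc25a37, at 0.160, stood at the 84.1 percentile and Alas2, at 0.0974, at the 54.1 percentile. These 2 genes also had the strongest signals relative to the array, at the 99.6 percentile of probe sets with 1 symbol, and whether signal strength bears on their smaller spread was not tested. The difference between the groups made up 1.03% of a member's sum of squares over the 6 arrays in the median, from 0.144% in Cpox to 21.0% in Slc25a37, against a median of 12.8% over all genes. Other lists spread more than the members. The median pooled standard deviation was 0.321 for erythroid genes, 0.291 for megakaryocyte (platelet precursor) genes and 0.441 for B lineage genes. It was 0.125 for marrow macrophage genes and 0.0919 for neutrophil genes.

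The spread was larger over the wild type arrays in 8 of 9 members, all but Alas2, and in 57.1% of all genes tested. This was not particular to the members. It held in 21 of 25 erythroid, 7 of 7 megakaryocyte and 9 of 9 B lineage genes. Among marrow macrophage genes it held in 5 of 10 and among neutrophil genes in 2 of 13. The members' standard deviations had a median of 0.287 over the wild type arrays and of 0.183 over the diabetic arrays (n = 3 each). Cpox had 0.495 in wild type and 0.194 in diabetic marrow, Alad 0.316 and 0.180, and Urod 0.336 and 0.193. Tfrc was nearly even, with 0.265 and 0.259, and Alas2 had 0.0697 and 0.119. The difference in spread was not tested, and it rests largely on wild type replicate 3, the highest wild type array in 9 of 9 members. Urod, for example, read 11.84 and 11.93 on wild type replicates 1 and 2 and 12.46 on replicate 3. Cpox, the widest, read 11.11, 11.43 and 12.08. Without wild type replicate 3 the median pooled standard deviation of the members was 0.164. That value is pooled over both groups and does not compare them. Whether wild type marrow is the more variable cannot be told from these arrays.

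**Figure D3:**
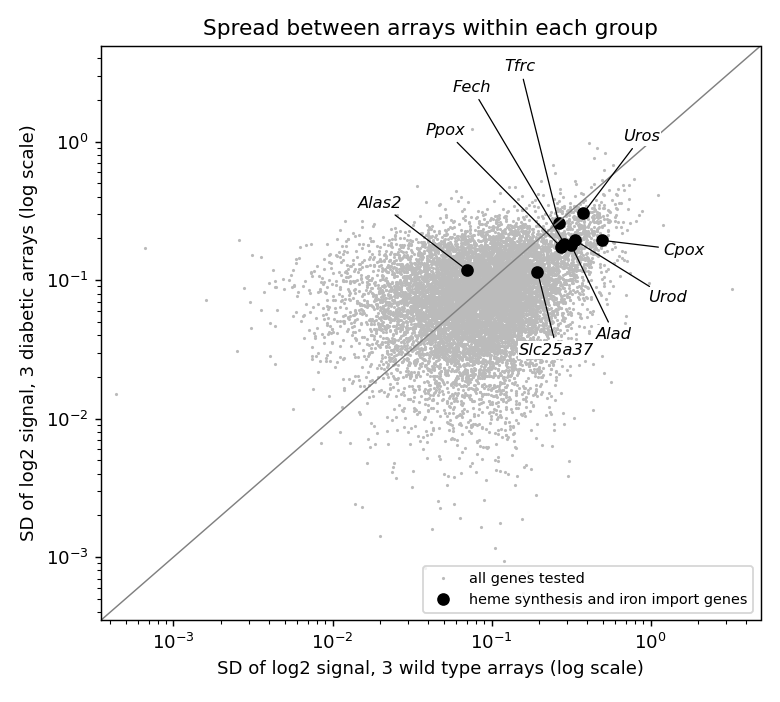
Standard deviation of the log2 signal over the 3 wild type arrays (horizontal, log scale) and the 3 diabetic arrays (vertical, log scale); grey points are all 11940 genes tested, black points the 9 genes, and the line marks equal spread. All members but Alas2 lie below the line, and Cpox, at 0.495 and 0.194, lies farthest to the right.

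The members varied as a block. Wild type replicate 3 was the highest wild type array in 9 of 9 members and diabetic replicate 2 the highest diabetic array in 9 of 9. Both held together in 19.6% of all genes tested, a pattern picked after the values were seen. Wild type replicate 1 was the lowest wild type array in 7 of 9, the exceptions being Alas2 and Slc25a37, where wild type replicate 2 was lowest. With each gene centred on its own mean, the mean of the 9 members was -0.26, -0.09 and 0.30 on wild type replicates 1, 2 and 3 and -0.11, 0.23 and -0.07 on diabetic replicates 1, 2 and 3. That is a 1.47-fold range within wild type and a 1.27-fold range within diabetic marrow. The group means of this profile were -0.02 and 0.02. The array that was left out therefore set the sign of most members. Without wild type replicate 3 all 9 were nominally higher in diabetic marrow, with Cpox at 0.29, the same held without diabetic replicate 1, and without diabetic replicate 2 only 2 were, Tfrc at 0.02 and Slc25a37 at 0.08. Slc25a37, at 0.25 ± 0.08 (SE) without wild type replicate 3, had an unadjusted limma p of 0.0169 there and an adjusted p of 0.344 (Benjamini-Hochberg). No member passed the adjusted threshold when any 1 array was left out.

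Genes that mark red cell precursors but do not encode enzymes of heme synthesis showed the same array pattern. The list of erythroid membrane and identity genes holds ion exchangers, skeletal proteins and transcription factors such as Slc4a1, Ank1, Klf1 and Gata1. Of its 25 tested genes, 24 had wild type replicate 3 and diabetic replicate 2 as the high arrays. Its mean profile was -0.29, -0.13 and 0.38 in wild type and -0.15, 0.24 and -0.05 in diabetic marrow, a 1.59-fold range within wild type. In RNA of unsorted marrow, a difference between arrays in the number of red cell precursors and one in the RNA of these genes per cell cannot be told apart. No gene of the list passed the adjusted threshold, and the median change was 0.01, with 14 genes nominally higher and 11 nominally lower. An unadjusted p under 0.05 was seen in 1 of the 25 genes, where 7.16% of all genes had one. The groups did not overlap in 1 of the 25, where 12.4% of all genes had such groups. In both counts the gene was Car1, a carbonic anhydrase of early red cell precursors. It read 13.22, 13.33 and 13.49 in wild type and 13.56, 13.66 and 13.61 in diabetic marrow, with a change of 0.27 ± 0.08 (SE, n = 3 per group) and a limma p, adjusted by Benjamini-Hochberg, of 0.513.

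When the erythroid list mean of each array was subtracted from the members, most of their spread was gone. The pooled standard deviation became smaller in 8 of 9 members, and in 7.66% of all genes outside the erythroid list. That share is not a matched background, since subtracting so variable a profile adds spread to genes that varied little. Over all genes outside the list the median pooled standard deviation rose from 0.0921 to 0.300. Alad went from 0.257 to 0.0387, Urod from 0.274 to 0.0433, Fech from 0.241 to 0.0492 and Ppox from 0.229 to 0.0642. Uros and Cpox kept 0.110 and 0.107, and Tfrc 0.131. Slc25a37 went only from 0.160 to 0.144, and Alas2 went up from 0.0974 to 0.209, since its own signal moved less between arrays than the list did. After subtraction the mean of the 9 members was 0.04, 0.04 and -0.08 in wild type and 0.03, -0.0059 and -0.02 in diabetic marrow, a group difference of 0.0035. The groups still overlapped in all 9 members. Tfrc, at 0.13, and Slc25a37, at 0.10, kept the largest differences in this measure, and Uros had the lowest, at -0.09. With the list mean as a covariate in limma, chosen after seeing the data, Slc25a37 was at 0.12 ± 0.06 (SE, n = 3 per group) and Tfrc at 0.14 ± 0.09, and their Benjamini-Hochberg adjusted p were 0.490 and 0.597.

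**Figure D4:**
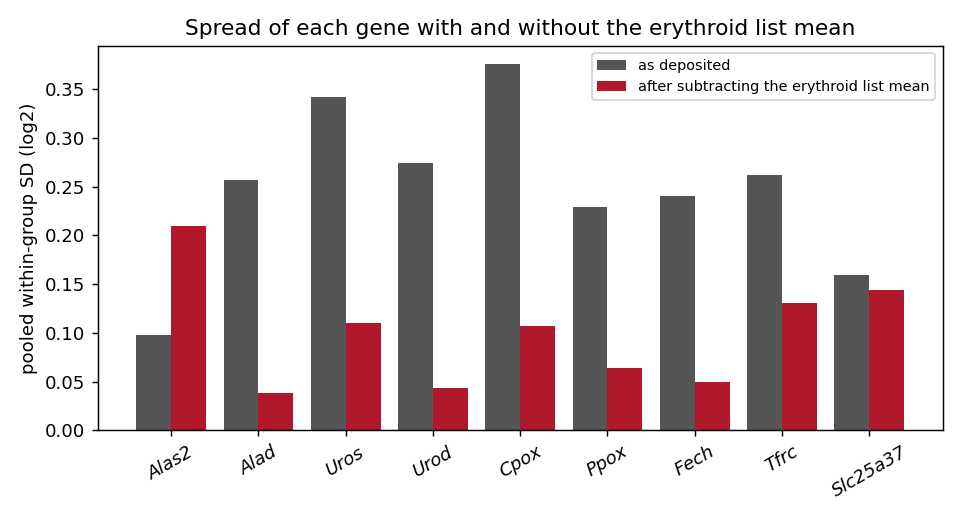
Pooled within-group standard deviation of each gene (log2 scale, 3 arrays per group) as deposited (grey bars) and after subtraction of the mean of 25 erythroid genes on the same array (red bars). The red bar is the shorter in 8 genes and the taller in Alas2, 0.209 against 0.0974.

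Markers of other marrow cells moved between the arrays as well, and the values given here are list means of centred log2 signals. The 9 B lineage genes ran against the members within wild type, at 0.58, 0.38 and -0.54 on replicates 1, 2 and 3, a 2.17-fold range, while in diabetic marrow they were at -0.13, 0.02 and -0.31. The 7 megakaryocyte genes, of the platelet precursors, ran with the members in wild type, at -0.34, -0.04 and 0.47, and were at 0.03, 0.09 and -0.21 in diabetic marrow. Wild type replicate 3 and diabetic replicate 2 were the high arrays in 5 of these 7 genes. The 11 cell cycle genes were at -0.11, -0.02 and 0.21 in wild type and at -0.05, 0.09 and -0.12 in diabetic marrow, and 10 of the 11 had the same high arrays as the members. That pattern was present in 0 of the 9 B lineage genes and in 0 of the 13 neutrophil genes. In the B lineage genes diabetic replicate 2 was still the highest diabetic array in 8 of 9, while wild type replicate 3 was the highest wild type array in 0. The mean of the 13 neutrophil genes stayed between -0.11 and 0.09 on all 6 arrays, while single genes of the list moved more. No gene of these 4 lists passed the adjusted threshold. The part of cell makeup in the spread of the members was not tested.

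**Figure D5:**
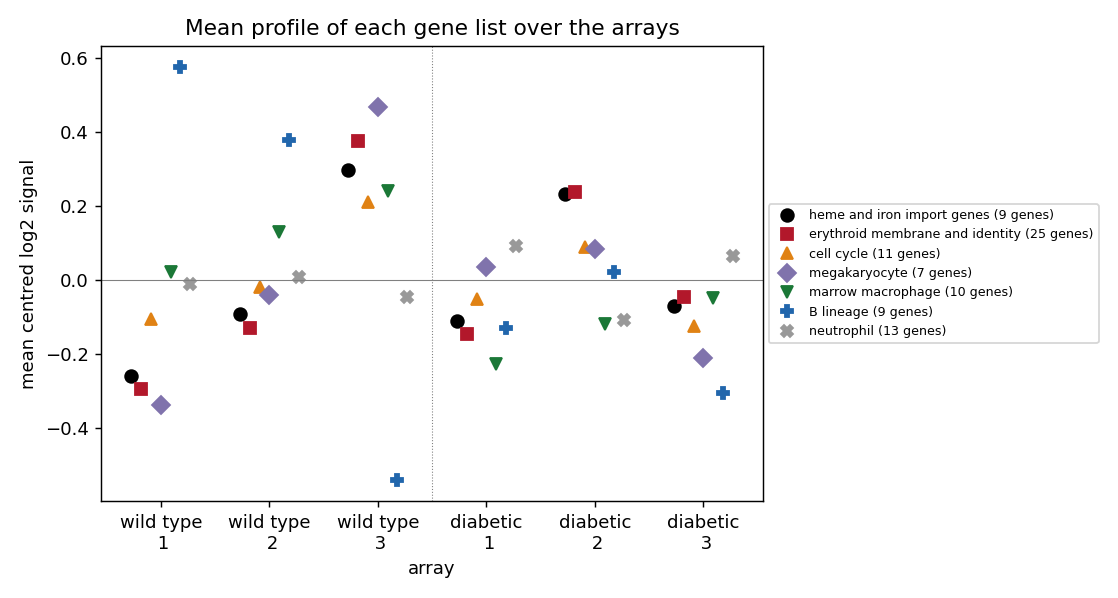
Mean over the genes of each list of the log2 signal centred on each gene's mean over the 6 arrays, by array. The heme and iron import genes (black) and the erythroid genes (red) lie close together on every array, while the B lineage genes (blue) run from 0.58 to -0.54 within wild type.

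The genes whose array profile lay closest to the mean profile of the members were ranked by the root mean square distance over the 6 arrays, among 11931 other genes. The 10 closest were Tmem231, Pigq, Aldh1a1, Hace1, Stradb, Trak2, E2f2, Glrx5, Bsdc1 and Acp1. Tmem231, a membrane protein of the ciliary base, came first with a distance of 0.0141, and Acp1, a small phosphatase, last of the 10 with 0.0292. The median distance of all other genes was 0.217, and the members themselves lay between 0.0315 and 0.135. Glrx5, a mitochondrial glutaredoxin needed for iron-sulfur clusters, belongs to the list of other heme genes, and E2f2, a cell cycle transcription factor, to the cell cycle list. None of the 10 was in the erythroid list, whose mean ran over a wider range than that of the members. The ranking describes these 6 arrays and says nothing of shared function.

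The rest of the heme pathway was described from a wider list. Of 15 other genes of heme synthesis, transport and assembly, 0 passed the adjusted threshold, with a median change of 0.07 and 10 genes nominally higher. An unadjusted p under 0.05 was seen in 1 of the 15, where 7.16% of all genes had one. That gene was Flvcr1, a heme exporter, at 9.57, 9.76 and 9.50 in wild type and 9.86, 9.69 and 9.98 in diabetic marrow. Its groups overlapped, its change was 0.23 ± 0.10 (SE, n = 3 per group), and limma's Benjamini-Hochberg adjusted p was 0.692. Its high and low arrays were not those of the members. Alas1, the housekeeping form of the first enzyme, was at 0.11 ± 0.08, Tmem14c, which carries a heme precursor into the mitochondrion, at 0.15 ± 0.13, and Pgrmc1, a heme-binding membrane protein, at -0.09 ± 0.08. In 10 of these 15 genes wild type replicate 3 and diabetic replicate 2 were the high arrays.

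Among 22 further genes of iron uptake, storage and export, 0 passed the adjusted threshold, and the median change was -0.01. An unadjusted p under 0.05 was seen in 1 of the 22, where 7.16% of all genes had one. The groups did not overlap in 2 of the 22, where 12.4% of all genes had such groups. Ftl1, the light chain of the iron store ferritin, read 13.30, 13.32 and 13.55 in wild type and 13.19, 13.18 and 13.26 in diabetic marrow. Its groups did not overlap, the change was -0.18 ± 0.08 (SE, n = 3 per group), and limma's Benjamini-Hochberg adjusted p was 0.694. Ftl1 has related gene copies that can share signal. Aco1, which as iron regulatory protein binds the mRNAs of ferritin and of the transferrin receptor, was at 0.14 ± 0.06. Fbxl5, which sends the related regulatory protein for degradation when iron is plentiful, was at 0.25 ± 0.14, and Id1, a target of the iron-sensing BMP pathway, at 0.18 ± 0.12. The high-array pattern of the members was present in 7 of the 22.

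Of 12 heme breakdown and sensing genes tested, 0 passed the adjusted threshold. An unadjusted p under 0.05 was seen in 4 of the 12, 2 nominally higher and 2 nominally lower, where 7.16% of all genes had one, and the groups did not overlap in 4 of the 12, where 12.4% of all genes had such groups. The list was not tested against the members or other genes. Cd163, the macrophage receptor for haptoglobin-bound hemoglobin, read 7.85, 7.79 and 7.82 in wild type and 8.18, 8.17 and 8.12 in diabetic marrow. The change was 0.34 ± 0.06 (SE, n = 3 per group), with a limma p, adjusted by Benjamini-Hochberg, of 0.0660. Its mean signal stood only at the 50.2 percentile of probe sets with 1 symbol. Its pooled standard deviation, 0.029, was at the 2.38 percentile of all genes tested, an unusually small spread. Lrp1, a receptor for heme bound to hemopexin, was at 0.27 ± 0.08 (SE, n = 3 per group).

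Hmox1, heme oxygenase 1, which opens the heme ring, read 10.51, 10.49 and 10.45 in wild type and 10.12, 9.91 and 10.36 in diabetic marrow. Spic, a transcription factor of red pulp and marrow macrophages that recycle iron, read 7.95, 8.23 and 8.26 in wild type and 7.72, 7.97 and 7.42 in diabetic marrow. Its mean signal stood at the 48.9 percentile of probe sets with 1 symbol, and the value of 7.42 lay under the filter's cut of 7.52. The groups of Hmox1 did not overlap, while those of Spic did. The changes were -0.35 ± 0.11 for Hmox1 and -0.44 ± 0.14 for Spic (SE, n = 3 per group), and limma's Benjamini-Hochberg adjusted p were 0.525 and 0.546. These 4 genes are active in macrophages. Cd163 and Lrp1 were nominally higher and Hmox1 and Spic nominally lower in diabetic marrow. Of the 10 marrow macrophage genes, 9 had nominally lower means in the diabetic group, and 0 passed the adjusted threshold. An unadjusted p under 0.05 was seen in 7 of the 10, all lower, where 7.16% of all genes had one. The groups did not overlap in 7 of the 10, where 12.4% of all genes had such groups. The mean profile of the macrophage list was 0.02, 0.13 and 0.24 in wild type and -0.23, -0.12 and -0.05 in diabetic marrow. The part of macrophage content in the values of the breakdown genes was not tested.

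Of the globin list, 6 genes had a probe set of their own, and 3 of these passed the signal filter and were tested, Hba-x, Hbq1a and Hbq1b. Of the 3, 0 passed the adjusted threshold or an unadjusted p of 0.05. Hbq1b, a theta globin gene, read 9.53, 9.83 and 10.37 in wild type and 9.83, 10.48 and 10.02 in diabetic marrow, with the same high arrays as the members and a change of 0.20 ± 0.23 (SE, n = 3 per group). It has a near-identical copy, Hbq1a, which can share its signal. The probe sets of the main adult globins carry several symbols each and were not used here.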

How the data were processed

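The deposited values are log2 signals per probe set. Per the submitters' processing notes the authors used RMA and the software Affymetrix Expression Console, with neither a version nor a genome build stated in the sources used here. RMA equalises the arrays, so a shift shared by most genes cannot be seen. Groups came from the sample titles. Of 35556 probe sets, 21789 had a single symbol in the platform annotation, 1621 several and 12146 none there. For each gene the probe set with the highest mean over the 6 arrays was used, and genes with a mean at or above 7.52, the 40th percentile of probe sets with 1 symbol, were tested (11940). Diabetic was compared with wild type by lmFit and eBayes in limma 3.58.1 (R 4.3.3, with data.table of version 1.17.8), two-sided, without covariates, with Benjamini-Hochberg adjustment over all genes and a threshold of 0.05. Intervals are 95% intervals from the moderated fit. The members and lists were chosen with earlier results of these data known, and no list or set test was run. Named genes were the members, up to 4 genes per list with the smallest p, and the 10 nearest profiles; other genes, such as those given to describe a list, carry no values. The gene test was tested on simulated data for this comparison, with 200 changed genes among 11940: of genes lowered by 1 and by 0.5 (log2) it recovered 88% and 64%, of genes raised by 1 and by 0.5 it recovered 90% and 62%, and it called 14 unchanged genes. The changed genes were drawn at random from all genes tested, with noise independent between genes. The members had a median pooled standard deviation of 0.257, against 0.0923 over all genes tested, so these shares do not carry over to them. Python 3.11.15 and matplotlib 3.10.9 drew the figures.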

Additional observations from a re-analysis of the deposited data

How the results depend on the processing

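In 16 alternatives 0 of the 9 members reached limma's Benjamini-Hochberg threshold of 0.05, and the smallest adjusted p of a member was 0.0969, for Slc25a37 with array weights, a fit that stopped before its weights converged. Over all genes the count called, 49 in the comparison as reported, was 1131 with array weights, 2 with the replicate block, 102 with the erythroid list mean as a covariate and 3 to 68 when 1 array was left out. It was 35 to 57 under the other level filters, the further normalizations, the mean of probe sets and the trend and robust settings; the level cut taken over probe sets with 1 or several symbols, added after seeing the data, gave 52. Of 144 member values under alternatives, 124 kept their direction and 20 turned. With the erythroid covariate Cpox was at -0.016 and Fech at -0.0042. When 1 array was left out the log2 changes ran from -0.032 to 0.080 for Alas2, -0.17 to 0.14 for Alad, -0.24 to 0.14 for Uros, -0.071 to 0.24 for Urod, -0.19 to 0.29 for Cpox, -0.16 to 0.11 for Ppox and -0.083 to 0.19 for Fech, while Tfrc, at 0.02 to 0.29, and Slc25a37, at 0.07 to 0.25, stayed above 0. Across the same 6 fits the members' median pooled standard deviation was 0.164 to 0.293. The replicate numbers were not taken to pair the arrays, since the deviations of same-numbered arrays correlated at 0.327, -0.0438 and -0.0541, and wild type replicate 3 correlated best with diabetic replicate 2, at 0.267. The block changed no call on a member. The other lists had 0 genes called except with array weights (8 marrow macrophage, 6 B lineage, 5 heme breakdown, 1 erythroid and 1 muscle gene), with the erythroid covariate (3 marrow macrophage and 1 heme breakdown gene) and without wild type replicate 3 (2 B lineage genes). With 3 arrays per group, the 95% intervals of the members show which group differences these data leave possible.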
